A study of Mus musculus with 16 samples.

Results

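The HoxA genes are the Hox genes of the A cluster, which lies on the minus strand of mouse chromosome 6. The 9 members described here are Hoxa2, Hoxa3, Hoxa4, Hoxa5, Hoxa6, Hoxa7, Hoxa9, Hoxa10 and Hoxa11, chosen by gene symbol and kept in the order of their positions. They are 9 of the 24170 genes and 11 of the 33702 RefSeq transcripts in the deposited matrix of FPKM (fragment numbers divided by transcript length and by library size, so that levels are comparable between genes of different length). The first and the last member together span chr6:52162417-52245810 of GRCm38, the build called mm10.

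Total RNA came from embryoid bodies (EBs), which are aggregates that mouse embryonic stem cells form when they are kept in suspension. R1 cells, an established mouse embryonic stem cell line, were kept for 4 days without Lif and the EBs were then given 2 µM retinoic acid (RA), the active form of vitamin A, for 4 days. Day 0 is the day of RA addition and day 4 is the end of the treatment. The procedure was repeated, giving 2 RNA samples for each day, and each RNA was divided into 4 vials that received different spike-in mixes, which made 16 libraries, 8 a day. The vials are splits of 1 RNA and not replicates, so an RNA sample entered the tests as the average over its 4 vials, 2 against 2. There were no EBs of the same age without RA, so RA and the 4 additional days in culture cannot be told apart.

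Hox genes encode transcription factors with a homeodomain. In the embryo they give the trunk, hindbrain and limbs their positions along the body axis, and the genes of a cluster are used in the order in which they lie on the chromosome, a property called collinearity. Genes at the 3′ end of a cluster, such as Hoxa2 and Hoxa3, act in the hindbrain and pharyngeal arches. Genes nearer to the 5′ end, such as Hoxa10 and Hoxa11, act in the posterior trunk, the reproductive tract and the limbs. RA acts through nuclear receptors (RARs) that bind DNA near several 3′ Hox genes, and RA treatment of stem cells is a classical way to turn these genes on.

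The day 4 libraries were alike in their sums of FPKM over RefSeq transcripts (408168 to 431978), whereas the day 0 libraries ranged from 409058 to 616368. The paper names the mix 1 vial of the first day 4 RNA as an outlier in its share of ribosomal RNA reads. The mix 3 and mix 4 vials of the second day 0 RNA stood apart from its other 2 vials, with 20510 and 20622 transcripts above 0 against 21795 and 22032. Each of the 10 pluripotency markers fell by day 4, and the summed FPKM of the list went from 114.9 to 217.6 in the day 0 libraries to 7.8 to 13.5 in the day 4 libraries. Markers of mesoderm rose in 6 and fell in 3 of 10 cases (summed FPKM of 60.6 to 90.5 and of 96.4 to 111.2), those of endoderm rose in 5 of 8 and fell in none (17.1 to 27.0 and 80.4 to 86.3). Neural markers rose in 4 and fell in 4 of 10 cases (32.2 to 59.7 and 53.9 to 56.9), and those of blood and endothelium rose in 1 and fell in 3 of 8 (84.6 to 130.5 and 95.4 to 132.2). Mesp1, an early mesoderm gene, was listed at 0 in all 8 day 4 libraries, and Ptprc, the leukocyte gene of CD45, did not exceed 0.011 FPKM in any library. Several of these lists changed between the same days as the HoxA values below, in either direction, and others had overlapping sums. The part of cell makeup in the HoxA values was not tested. In these bulk samples fewer cells of a type and less RNA per cell cannot be told apart.

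HoxA RNA increased strongly during RA treatment, and the increase lay almost wholly in the 3′ part of the cluster. The summed FPKM of the 9 genes was 7.35 ± 0.719 (SD, n = 2 RNA samples) at day 0 and 162.6 ± 1.13 at day 4, a ratio of 22.1. Hoxa2, Hoxa3, Hoxa4 and Hoxa5 rose by 59.1 to 576 times, Hoxa9 and Hoxa10 by 2.37 and 2.11 times, and Hoxa11 had a lower mean at day 4. The genes from Hoxa2 to Hoxa5 held 7.32% of the HoxA sum at day 0 and 91.9% at day 4, while Hoxa9, Hoxa10 and Hoxa11 held 84.1% and then 7.09%.

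Of the 9 genes, 6 passed the test as higher at day 4 (limma on log2(FPKM + 0.1), adjusted p of at most 0.05 over all 20497 genes tested). Over all genes 16% passed as higher. None of the 9 passed as lower, against 14.5% of all genes. In 7 of the 9 genes all 8 day 4 libraries were above all 8 day 0 libraries, which held for 19.8% of all genes. The median log2 difference was 1.21 over the 9 genes and -0.02 over all genes. The 6 calls rest on both day 4 RNA samples: without either of them none of the 20497 genes passed in limma (4935 and 4716 had an unadjusted p under 0.05), and the adjusted p of Hoxa2, Hoxa3, Hoxa4 and Hoxa5 were then 0.0731 to 0.0815 and those of Hoxa9 and Hoxa10 0.244 to 0.303.

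**Figure D1:**
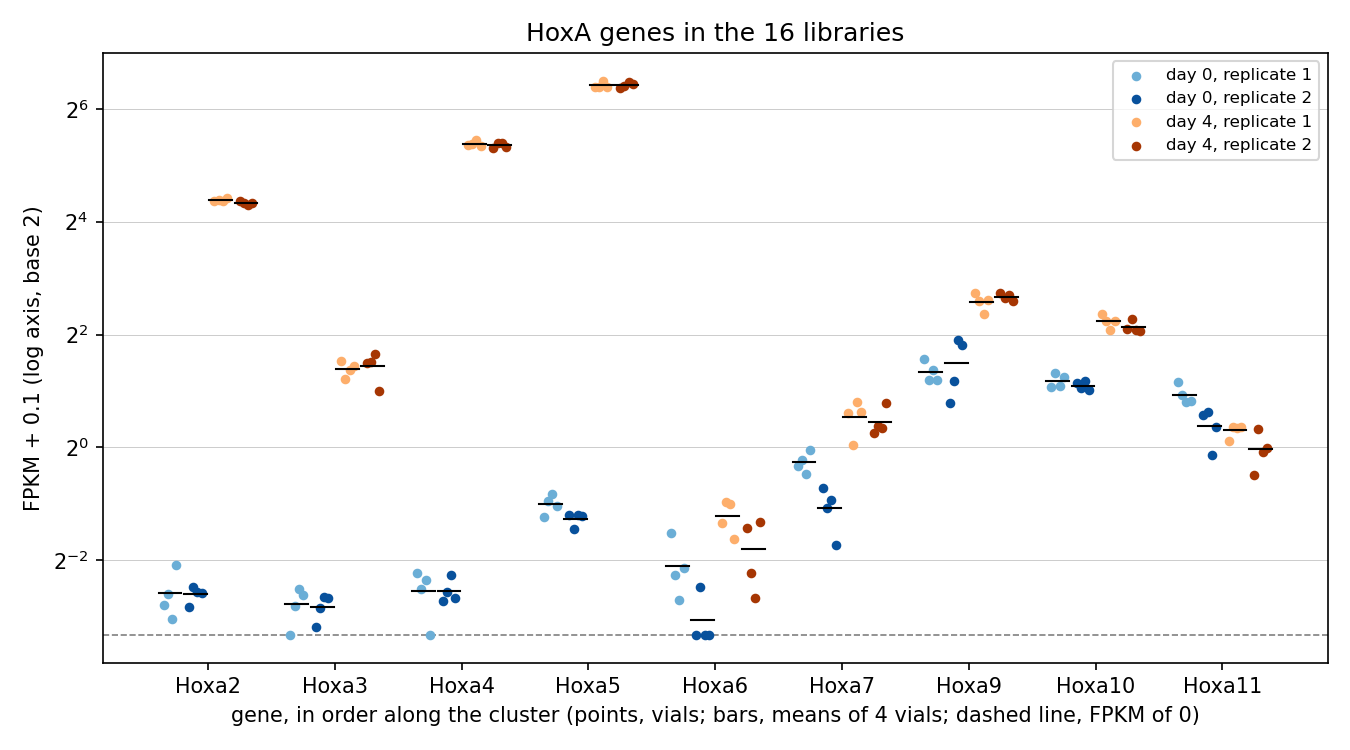
FPKM + 0.1 on a log axis for the 9 HoxA genes in order along the cluster, with a point for each vial, a bar for the 4-vial mean of an RNA sample and a dashed line at an FPKM of 0. From Hoxa2 to Hoxa5 the days are far apart, from 0.463 FPKM at most at day 0 to 82.5 FPKM at least at day 4 for Hoxa5, whereas the libraries of the 2 days overlap in Hoxa6 and Hoxa11.

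Hoxa2 (chr6:52162417-52164831, NM_010451) is the most 3′ of the 9 genes and specifies the second pharyngeal arch and segments of the hindbrain. At day 0 it had 0.0672 FPKM in the first RNA and 0.0642 in the second (means of 4 vials), with single vials from 0.022 to 0.137. At day 4 it had 20.8 and 20.02 FPKM, with vials from 19.6 to 21.2. The day 4 vials lay close together, the day 0 vials were spread relative to their low level, and the days did not overlap. The log2 difference was 6.95 (SE 0.22, adjusted p = 0.0046), which ranked 13 from the top among all 20497 genes tested.

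Hoxa3 (chr6:52169059-52213067, NM_010452) is required for the thymus, parathyroid and other tissues of the third pharyngeal pouch and arch, and its annotated locus extends over Hoxa4, Hoxa5 and Hoxa6. Its RNA samples had 0.0452 and 0.0415 FPKM at day 0, where 1 vial was listed at 0, and 2.53 and 2.60 FPKM at day 4, where vials ranged from 1.90 to 3.04. All day 4 vials were above all day 0 vials. The log2 difference of 4.22 (SE 0.21, adjusted p = 0.0046) was the smallest among the 4 most 3′ genes. At day 4 the level of Hoxa3 was below those of both genes that flank it among the members, Hoxa2 and Hoxa4, with no overlap of their libraries.

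Hoxa4 (chr6:52189682-52191703, NM_008265) takes part in patterning the cervical vertebrae. It went from 0.0713 and 0.0715 FPKM at day 0, with vials from 0 to 0.113, to 41.6 and 40.7 FPKM at day 4, with vials from 39.4 to 43.7. The groups were widely separated. Its log2 difference of 7.91 (SE 0.21, adjusted p = 0.0046) was the largest of the 9 genes and ranked 6 among all genes tested.

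Hoxa5 (chr6:52201754-52204587, NM_010453) acts in the development of the lung, trachea and cervicothoracic skeleton. Its RNA samples had 0.400 and 0.316 FPKM before RA and 85.2 and 85.7 FPKM after it, and the vials ranged from 0.265 to 0.463 and from 82.5 to 90.2. It was the most abundant HoxA gene at day 4, where 96.4% of the 24170 genes had a lower mean, and it alone held 52.5% of the HoxA sum. The log2 difference was 7.55 (SE 0.19, adjusted p = 0.0046), and the ratio of the mean FPKM was 239.

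For Hoxa2, Hoxa3 and Hoxa4 the day 0 values were only a few steps of the table, in which FPKM are whole steps of 0.01 times a scaling factor per library, so the ratios of 310.5, 59.1 and 576 are less certain than the differences in level. With an offset of 1 instead of 0.1 the log2 differences of these 3 genes were smaller, down to 4.33, 1.77 and 5.30, and all 3 still passed.

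**Figure D2:**
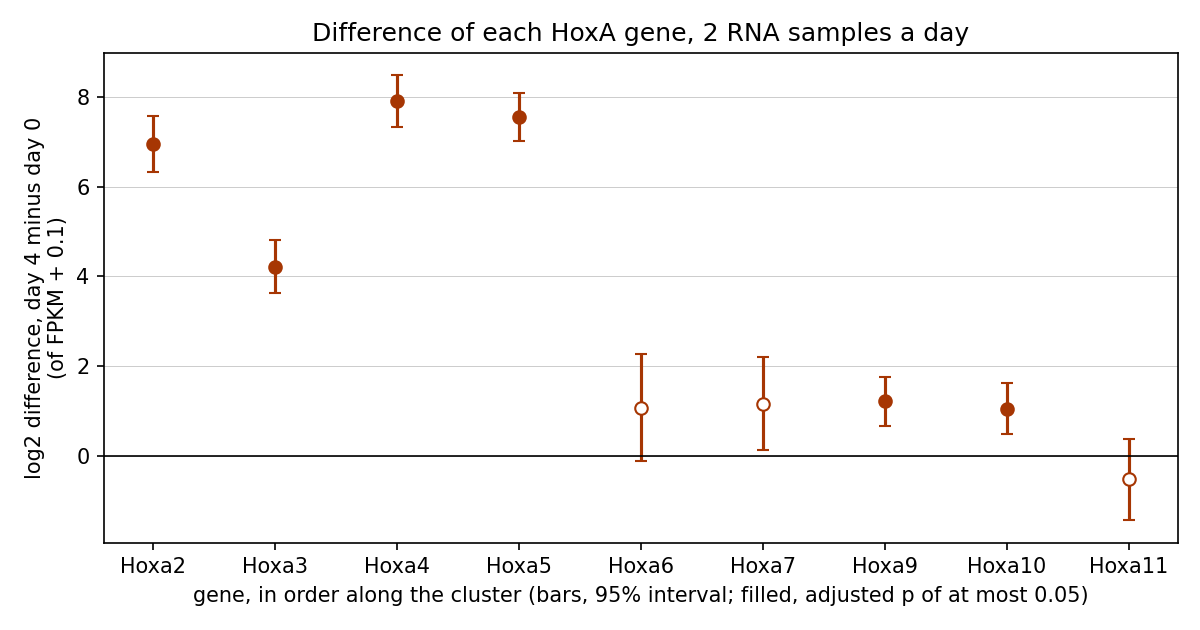
Log2 difference of FPKM + 0.1 between day 4 and day 0 for each HoxA gene in order along the cluster, with 95% intervals of the limma fit (2 RNA samples a day); filled points passed an adjusted p of at most 0.05. The values step down from 7.55 at Hoxa5 to 1.07 at Hoxa6 and reach -0.53 at Hoxa11.

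The upstream sequences of the most strongly raised genes are shown for Hoxa2 and Hoxa5, the first member and the most abundant. They are the 250 bases before the RefSeq start on the minus strand of GRCm38.p6, at chr6:52164832-52165081 for Hoxa2 and chr6:52204588-52204837 for Hoxa5, written 5′ to 3′. Capitals mark a match to TGATTNAT, a site of the kind that HOX proteins bind together with cofactors, which reads ATCAATCA from -111 to -104 relative to the start on this strand.
Hoxa2: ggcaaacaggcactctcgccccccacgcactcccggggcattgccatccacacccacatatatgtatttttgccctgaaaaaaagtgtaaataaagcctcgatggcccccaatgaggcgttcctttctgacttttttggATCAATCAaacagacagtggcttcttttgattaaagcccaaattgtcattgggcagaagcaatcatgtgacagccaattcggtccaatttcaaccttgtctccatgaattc
Hoxa5: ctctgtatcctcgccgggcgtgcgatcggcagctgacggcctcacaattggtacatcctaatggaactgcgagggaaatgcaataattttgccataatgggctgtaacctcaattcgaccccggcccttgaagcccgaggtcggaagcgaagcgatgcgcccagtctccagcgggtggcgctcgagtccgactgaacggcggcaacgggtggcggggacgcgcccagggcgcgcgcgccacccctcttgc
The 2 windows differ in composition. That of Hoxa2 had 46.4% GC and 6 CpG, and that of Hoxa5 had 63.6% GC and 28 CpG, where the median over 32851 promoters was 52.4% GC.

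Each motif was searched on both strands in these 250 bases for the 9 start sites that RefSeq lists for 8 of the 9 genes. The table used here has no entry for Hoxa4. For Hoxa7 the RefSeq start is 52218573, while the matched GENCODE transcript starts at 52217505, so its positions hold for the RefSeq start only. Half-sites of the kind that RARs bind were taken as AGGTCA or as AGTTCA and, with a different first base, as GGGTCA or as GGTTCA, and were found in 2 of the 9 windows (22.2%) and in 38.6% of all windows. A pair of such half-sites in the same direction with 5 or 2 bases between them was in 0 of the 9 and in 0.1% and 0.2% of all. TGATTNAT was in 1 of the 9 (11.1%) and in 2.8% of all, and TTTATG, the core that CDX proteins bind, in 1 of the 9 (Hoxa7, at -236 and at -173) and in 10.8% of all. TATAAA was in 1 of the 9 (Hoxa10) and in 12.4% of all. The 4 kinds of half-site share letters with the paired sites, so these counts are not independent. A match describes the letters of these windows only.

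In the middle of the cluster the differences were smaller than from Hoxa2 to Hoxa5, with ratios of the mean FPKM of 3.37 for Hoxa6 and 2.365 for Hoxa7. Hoxa6 (chr6:52204858-52208672, NM_010454), a gene of the thoracic paralogue groups, had 0.134 and 0.0198 FPKM before RA and 0.333 and 0.186 FPKM after it. It was listed at 0 in 3 of the 8 day 0 libraries, all of the second RNA, and the libraries of the days overlapped (0 to 0.248 and 0.057 to 0.412). The log2 difference of 1.07 (95% interval -0.12 to 2.26, adjusted p = 0.131) did not pass. It depends on the offset, and with an offset of 0.01 it was 1.98 in limma (adjusted p = 0.162). Hoxa6 had the lowest level of the 9 genes at day 4, although its neighbour Hoxa5 had the highest.

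Hoxa7 (chr6:52215623-52218573, NM_010455), which also acts in the thoracic region, had 0.737 and 0.377 FPKM before RA and 1.36 and 1.27 FPKM after it. The vials ranged from 0.203 to 0.873 and from 0.930 to 1.65, so the days did not overlap. The log2 difference of 1.17 (95% interval 0.13 to 2.20, adjusted p = 0.0857) did not pass. The 2 RNA samples of day 0 were further apart than those of day 4.

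The first RNA was above the second at both days in Hoxa2, Hoxa6, Hoxa7, Hoxa10 and Hoxa11. With the repeat of the procedure as a replicate block, Hoxa6 (adjusted p = 0.0017) and Hoxa7 (adjusted p = 0.0171) passed as higher at day 4, which made 8 of the 9 genes, while 22.5% of all genes passed as higher in that fit (10576 genes passed in either direction, against 6253 without the block). Hoxa7 also passed without the mix 3 and mix 4 vials of the second day 0 RNA (log2 difference 1.07, adjusted p = 0.0341) and without the first day 0 RNA (1.57, adjusted p = 0.0472).

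At day 0 the 5′ genes Hoxa9, Hoxa10 and Hoxa11 had the highest means of the 9 genes. Hoxa9 (chr6:52223097-52227370), a gene of posterior patterning that is also expressed in blood progenitors, had 2.42 and 2.71 FPKM before RA and 5.90 and 6.26 FPKM after it. Single vials ranged from 1.63 to 3.66 and from 5.03 to 6.57, with no overlap. The log2 difference was 1.21 (SE 0.20, adjusted p = 0.0227). The day 0 value rests on vials that were unlike each other in the second RNA, with 1.63 and 2.15 FPKM in mixes 1 and 2 and 3.66 and 3.40 FPKM in mixes 3 and 4. In fits on the mix 3 vials or on the mix 4 vials alone, Hoxa9 did not pass (adjusted p = 0.283 and 0.172). Those fits called 736 and 1411 of all 20497 genes as changed, against 6253 in the main test, so the loss was not particular to Hoxa9.

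Hoxa10 (chr6:52231197-52240854), known for its part in the uterus and the lumbar vertebrae, had 2.17 and 2.04 FPKM before RA and, after it, 4.605 and 4.29 FPKM. The vials of the 2 days ranged from 1.94 to 2.38 and from 4.09 to 5.03 and did not overlap. The log2 difference of 1.04 (SE 0.20, adjusted p = 0.0325) passed, but not with an offset of 1 (adjusted p = 0.0544), without the first day 0 RNA (0.0512), or in the fits on the mix 3 or the mix 4 vials alone (0.155 and 0.122). Fewer of all genes passed in the mix 3 and mix 4 fits, as given for Hoxa9.

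Hoxa11 (chr6:52242105-52245810, NM_010450), which acts in the forearm, kidney and uterus, was the only member with a lower mean at day 4. Its RNA samples had 1.81 and 1.205 FPKM before RA and 1.13 and 0.875 FPKM afterwards. The libraries overlapped, from 0.806 to 2.14 and from 0.612 to 1.19. The log2 difference of -0.53 (95% interval -1.44 to 0.38, adjusted p = 0.277) did not pass in the main test or in any of 19 alternatives.

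The order of the levels changed between the days. At day 0 it ran from Hoxa9 through Hoxa10, Hoxa11, Hoxa7, Hoxa5, Hoxa6, Hoxa4 and Hoxa2 to Hoxa3. In that order neighbours overlapped in their libraries, except Hoxa5 and Hoxa6, and the RNA samples of Hoxa7 and Hoxa5 and of Hoxa6 and Hoxa4 overlapped as well. At day 4 it ran from Hoxa5 through Hoxa4, Hoxa2, Hoxa9, Hoxa10, Hoxa3, Hoxa7 and Hoxa11 to Hoxa6. There the libraries of all neighbours were apart, except those of Hoxa7 and Hoxa11. The day 0 means of the 9 genes lay between 0.0434 and 2.57 FPKM, and those of day 4 between 0.259 and 85.4 FPKM.

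Hoxa9 and Hoxa10 have 2 RefSeq transcripts each, and the other 7 genes have 1. Of the 11 transcripts 5 passed as higher at day 4, those of Hoxa2, Hoxa3, Hoxa4 and Hoxa5 and NM_001122950 of Hoxa10, against 10.2% of all 28214 transcripts tested. None passed in the fits without the first day 0 RNA, without either day 4 RNA or on the mix 3 vials alone, where 6, 4, 4 and 5 of the 11 had an unadjusted p under 0.05 with a higher day 4 value in limma. With the replicate block 7 of the 11 passed as higher, against 14.7% of all transcripts in that fit, the added ones being NM_010454 of Hoxa6 (adjusted p = 0.0390) and NM_001277238 of Hoxa9 (adjusted p = 0.0200). NM_010455 of Hoxa7 did not pass in that fit (adjusted p = 0.0891), although the same values passed in the fit over genes.

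Nearly all Hoxa10 RNA was assigned to NM_001122950, the transcript from the upstream start at 52240854. It has 2 exons and 1436 exonic bases in GENCODE and a reading frame of 94 codons. NM_008263 starts downstream at 52234939, has 2565 exonic bases and encodes 416 codons, the full-length protein. They share 859 exonic bases, and 577 belong to NM_001122950 alone and 1706 to NM_008263 alone. NM_001122950 had 1.90 and 1.998 FPKM before RA and 4.51 and 4.25 FPKM after it, with vials from 1.65 to 2.23 and from 3.94 to 4.88. Those ranges did not overlap, and the log2 difference was 1.13 (SE 0.21, adjusted p = 0.0439).

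NM_008263 had 0.264 and 0.0400 FPKM before RA and 0.0950 and 0.0382 FPKM after it. It was listed at 0 in 2 day 0 and 3 day 4 libraries, and the days overlapped (log2 difference -0.46, SE 0.55, adjusted p = 0.559). NM_001122950 thus held 87.7% and 98.1% of the Hoxa10 FPKM in the day 0 RNA samples and 97.9% and 99.1% at day 4. The division of fragments between transcripts that share exons is an estimate made by the quantification tool, and the bases that belong to 1 transcript alone carry it.

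The 250 bases before both Hoxa10 starts are shown because the assigned RNA differed so much between them, together with those before Hoxa11, the member whose mean did not increase. They lie at chr6:52240855-52241104, chr6:52234940-52235189 and chr6:52245811-52246060 on the minus strand of GRCm38.p6 (RefSeq). Capitals mark TTTATA, which is TATAAA on the other strand, from -160 to -155 before the downstream Hoxa10 start, and the half-site GGGTCA from -65 to -60 before Hoxa11.
Hoxa10 upstream start: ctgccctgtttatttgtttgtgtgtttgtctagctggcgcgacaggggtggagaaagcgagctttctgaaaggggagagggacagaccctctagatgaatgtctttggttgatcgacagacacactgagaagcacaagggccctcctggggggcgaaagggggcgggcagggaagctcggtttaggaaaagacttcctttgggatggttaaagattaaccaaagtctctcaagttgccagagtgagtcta
Hoxa10 downstream start: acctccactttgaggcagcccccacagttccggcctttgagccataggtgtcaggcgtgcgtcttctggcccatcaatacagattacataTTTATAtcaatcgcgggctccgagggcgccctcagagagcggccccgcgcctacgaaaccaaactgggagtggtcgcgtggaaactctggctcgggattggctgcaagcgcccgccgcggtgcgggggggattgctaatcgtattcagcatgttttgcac
Hoxa11: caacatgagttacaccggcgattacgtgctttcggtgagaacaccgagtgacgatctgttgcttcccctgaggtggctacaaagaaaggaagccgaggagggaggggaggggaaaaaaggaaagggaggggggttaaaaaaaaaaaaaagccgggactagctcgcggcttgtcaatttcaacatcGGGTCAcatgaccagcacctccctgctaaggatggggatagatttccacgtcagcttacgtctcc
The window of the upstream Hoxa10 start had 51.6% GC and 7 CpG, that of the downstream start 59.2% GC and 20 CpG, and that of Hoxa11 52.0% GC and 13 CpG. None of the motifs searched was in the window of the upstream start.

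The 2 Hoxa9 transcripts, NM_001277238 and NM_010456, were quantified separately, but both were matched to the same GENCODE transcript, so the bases in which they differ are not given here. NM_001277238 had 1.03 and 2.04 FPKM before RA and 4.27 and 5.66 FPKM after it, and its libraries overlapped (0.709 to 3.18 and 2.77 to 6.13). The log2 difference of 1.69 (SE 0.42, adjusted p = 0.0706) did not pass without the replicate block and passed with it (adjusted p = 0.0200). NM_010456 had 1.39 and 0.670 FPKM before RA and 1.63 and 0.601 FPKM after it, with a log2 difference of 0.04 (SE 0.66, adjusted p = 0.968). NM_001277238 held 43.1% and 70.7% of the Hoxa9 FPKM at day 0 and 71.3% and 90.4% at day 4. The share was higher at day 4 in both repeats of the procedure, while the second day 0 RNA and the first day 4 RNA had similar shares. The vials of 1 RNA differed too, from 43.5% to 86.8% in the second day 0 RNA, which is the same RNA in every vial.

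**Figure D3:**
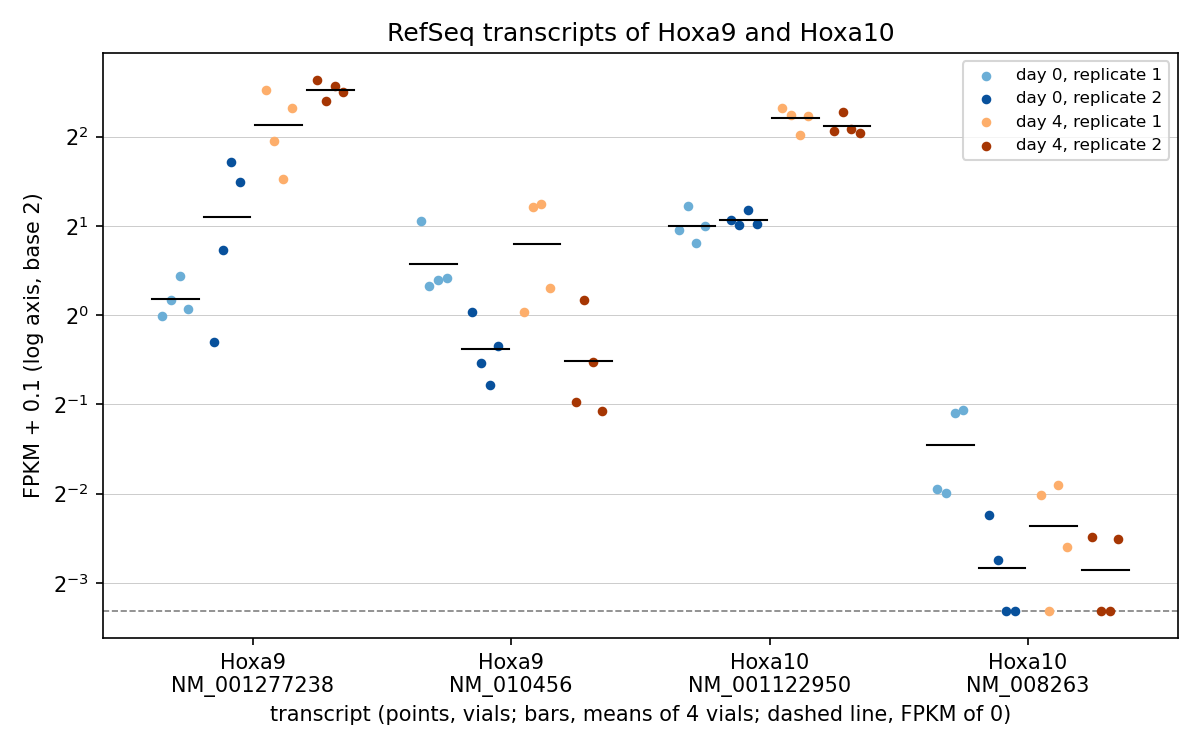
FPKM + 0.1 on a log axis for the 2 RefSeq transcripts of Hoxa9 and of Hoxa10, with a point for each vial, a bar for the 4-vial mean of an RNA sample and a dashed line at an FPKM of 0. NM_001122950 of Hoxa10 sits at 1.65 to 2.23 FPKM at day 0 and 3.94 to 4.88 FPKM at day 4, and NM_008263 stays at or under 0.379 FPKM.

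Of 13 listed neighbours and noncoding genes of the cluster, 9 were in the table, of which 3 rose and 1 fell. Skap2, a signalling adaptor gene at chr6:51859165-52012549 on the 3′ side, went from 10.9 and 10.1 FPKM to 68.3 and 65.5 FPKM (log2 difference 2.65, SE 0.14, adjusted p = 0.0046). Hoxaas3, an antisense RNA of the cluster whose locus overlaps Hoxa5, Hoxa6 and the 5′ end of Hoxa3, went from 0.338 and 0.151 FPKM to 2.64 and 3.07 FPKM (3.15, SE 0.37, adjusted p = 0.0128). The quantification was strand-specific. Halr1, a noncoding RNA between Skap2 and Hoxa2, passed as well (1.26, adjusted p = 0.0156), but its libraries overlapped and it did not exceed 0.282 FPKM.

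Evx1, a homeobox gene beyond the 5′ end of the cluster at chr6:52313498-52318389, moved in the opposite direction. It fell from 17.1 and 8.81 FPKM to 0.135 and 0.148 FPKM (log2 difference -5.68, SE 0.41, adjusted p = 0.0057). Hoxa11os, Hottip, Snx10, Hibadh and Tax1bp1 did not pass, with log2 differences of -0.57, -0.11, -0.53, 0.13 and 0.20. Hottip, a noncoding RNA of the 5′ end, did not exceed 0.097 FPKM in any library.

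Among 20 genes of RA signalling, upstream regulators and cofactors of HOX proteins, 6 rose and 5 fell. Rarb, an RA receptor gene that RA itself activates, went from 0.190 and 0.200 FPKM to 106.4 and 107.5 FPKM (log2 difference 8.50, SE 0.17, adjusted p = 0.0046). Cyp26a1, which encodes an RA-degrading enzyme and is also known as a gene that RA activates, fell from 48.9 and 52.4 FPKM to 8.43 and 9.34 FPKM, with no overlap of libraries (log2 difference -2.50, SE 0.15, adjusted p = 0.0047). The HOX cofactor genes Meis1 and Meis2 rose by 6.75 and 5.52 on the log2 scale (adjusted p = 0.0046 each). Cdx2, whose protein acts on posterior Hox genes, fell by 7.21 on the log2 scale, from 57.6 and 31.3 FPKM to 0.164 and 0.212 FPKM (adjusted p = 0.0046).

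The other Hox clusters are given beside HoxA in the same ranges of paralogue groups, with no test of a difference between clusters. Some groups in these ranges hold no HoxA member. Group 1, at the 3′ end, holds no HoxA member described here either. There Hoxb1 did not pass (log2 difference 0.02, adjusted p = 0.946) and Hoxd1 passed as lower (-1.45, adjusted p = 0.0182). In groups 2 to 5 all 4 HoxA genes passed as higher, with log2 differences of 4.22 to 7.91. The 4 HoxB genes of these groups passed as well (2.55 to 3.90), as did both HoxC genes (5.69 and 6.96) and 1 of 2 HoxD genes (0.50 and 2.00). In groups 6 to 8, 0 of 2 HoxA genes passed, against 1 of 3 HoxB, 2 of 2 HoxC and 1 of 1 HoxD genes. In groups 9 to 13, 2 of 3 HoxA members passed as higher and none as lower, with a median log2 difference of 1.04. Of the HoxB genes 1 of 2 passed as higher and none as lower (median 2.19). Of the HoxC genes 1 of 5 passed as higher and 1 as lower (median -0.75), and of the HoxD genes 0 of 5 as higher and 1 as lower (median -0.71). Hoxb13 departed from the others of its groups, from vials at 0 to 0.095 FPKM to vials at 3.26 to 4.18 FPKM (log2 difference 4.87, adjusted p = 0.0046).

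Summed over its genes, HoxA went from 6.1 to 8.4 FPKM in the day 0 libraries to 157.7 to 169.3 FPKM in the day 4 libraries. HoxB went from 15.0 to 21.3 to 88.9 to 101.8 FPKM, and HoxC from 5.8 to 8.1 to 138.1 to 149.9 FPKM. HoxD had 30.7 to 37.0 and 34.2 to 37.1 FPKM, so its libraries overlapped between the days.

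**Figure D4:**
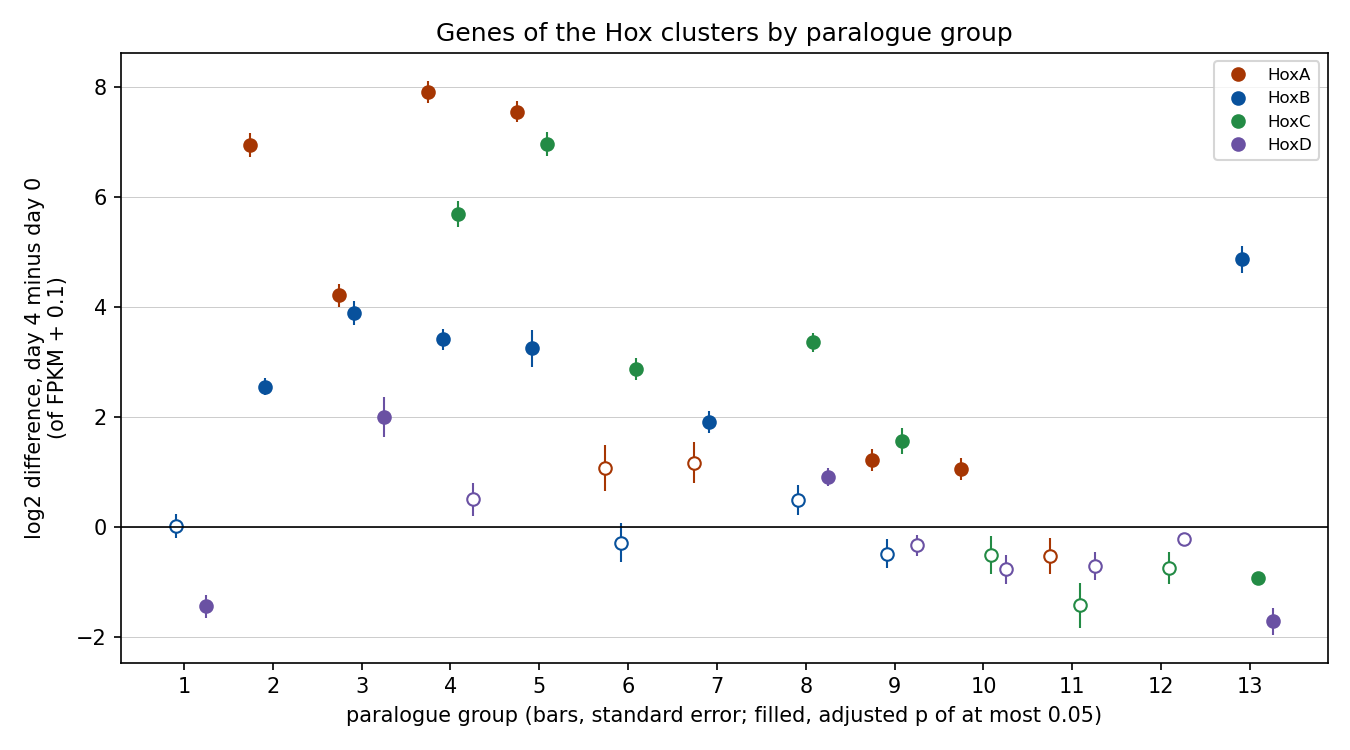
Log2 difference of FPKM + 0.1 between day 4 and day 0 against the paralogue group, for the 9 HoxA members and the genes of HoxB, HoxC and HoxD, with standard errors and filled points for an adjusted p of at most 0.05. Groups 2 to 5 hold the HoxA values of 4.22 to 7.91, and the values of groups 10 to 12 that are drawn lie between -1.43 and 1.04.

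Genes outside the Hox clusters whose levels over the 16 libraries were most like the summed HoxA FPKM were Cd93, Adgrl3, Ccn4, Neurl3 and Meis1, with Pearson r of 0.9990 to 0.9994 of log2(FPKM + 0.1) among the 12376 genes that reached 1 FPKM in an RNA sample. The 16 libraries share 4 RNA samples in 2 days, and 587 genes had an r above 0.99, so this likeness mostly restates a low day 0 and a high day 4 level.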

How the data were processed

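Total RNA of 4 RNA samples in 16 libraries (4 vials each) was sequenced by the authors as paired-end, strand-specific reads after ribosomal RNA removal. Per the study's methods, the authors mapped the reads with Bowtie2 2.1.0 to RefSeq transcripts of mm10 with the spike-ins, estimated abundance with RSEM 1.2.18 and deposited FPKM per transcript, scaled by TMM. The 16 value columns, 0 of which lacked a sample, were matched by title, the day by the labels and the RNA sample by the study's sample list. A gene's FPKM is the sum over transcripts with its symbol, which 99.2% of transcripts had. Spike-ins (48 rows) and the 3673 genes at 0 in all libraries were left out.

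The 4-vial mean of an RNA sample was tested on log2(FPKM + 0.1) with limma 3.58.1 in R 4.3.3 (lmFit, eBayes with trend, two-sided, Benjamini-Hochberg over all genes, adjusted p of at most 0.05). The offset makes differences of low genes too small. The script was tested on simulated data. Python 3.11.15, pandas 2.3.3 and matplotlib 3.10.9 were used for summaries. The FPKM are whole steps of 0.01 times a factor per library (100% of values within 0.001 FPKM), and the depth behind a value is unknown, so no counting intervals are given.

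Replicate numbers mark the repeat of the procedure in the study's sample list, and the differences between the 2 RNA samples correlated between the days (r = 0.742 over 12407 genes, which are not independent). Members, marker lists and tests were chosen with earlier results of these data known. All members with each RefSeq transcript, all listed neighbours, at most 5 regulators of the largest difference (some results on regulators are not reported here) and the 5 genes most like HoxA were named. Hoxb1, Hoxd1, Hoxb13, Cyp26a1, Mesp1 and Ptprc were named after their values were seen.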

Additional observations from a re-analysis of the deposited data

Results flagged for a closer look

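Among the 8 libraries of a day, the 9 genes and the 4 transcripts of Hoxa9 and Hoxa10 gave 26 groups, of which 1 held a library far from the rest by Dixon's test (chance gives about 1 in 20 groups). Hoxa9 at day 4 had 5.03 FPKM in the mix 3 vial of the first RNA, with 5.92 FPKM as the nearest value, a gap of 0.580 of the range.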

How the results depend on the processing

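Over 19 alternatives, 169 values of the 9 genes were computed (Hoxa6 and Hoxa7 could not be tested where a mean of at least 1 FPKM was required). None changed sign, 144 kept their side of the threshold, 18 lost the call and 7 gained it. The number of genes that changed, 6253 in the main test, was 4156 with a mean of at least 1 FPKM (11585 genes tested), 9419 with the 4 vials as libraries and the RNA sample as a random block, 10576 with the replicate block, and 12432 without the mix 3 and mix 4 vials of the second day 0 RNA. It was 11595 in the mix 1 vials, 736 in the mix 3 vials and 1411 in the mix 4 vials. Leaving out 1 RNA sample gave 0 to 9224 genes, 0 to 6 HoxA genes and 0 to 5 HoxA transcripts. A day with 1 RNA sample is then assumed to vary like the other day. The HoxA transcripts that passed, 5 in the main test, were 0 in the mix 3 vials and 3 in the mix 4 vials. The replicate block added Hoxa6 and Hoxa7 and the transcripts NM_010454 and NM_001277238, and it removed no HoxA gene or transcript. Scaling to equal sums or by the upper quartile added Hoxa7 (adjusted p = 0.0290 and 0.0436), as did vials as libraries (0.0047). With equal sums 4 neural markers rose and 2 fell. Depth is unknown, and low levels such as those of Hoxa6 are limited by the rounding of the table.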
